A study of Mus musculus with 6 samples.

Results

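The genes described here are 8 genes of cholesterol synthesis and its control, Srebf1, Srebf2, Insig1, Hmgcs1, Sqle, Lss, Idi1 and Fdft1, chosen by symbol from a table of 23827 listed genes. Their levels were measured in brain endothelial cells of mouse embryos at stage E14.5. Polyadenylated RNA was isolated by TRAP, a method in which ribosomes tagged in a given kind of cell are captured together with the mRNA being translated. In the first group, 3 libraries came from embryos that overexpressed Axin1 from the Rosa26 locus with an IRES-LacZ reporter; in the second, 3 libraries came from wild-type embryos. All 6 came from a C57BL/6 x 129/Sv background, and in each case the mother had been given tamoxifen at E12.5. Axin1 holds together the machinery that degrades beta-catenin, the effector of canonical Wnt signals, and the study asks how Wnt/beta-catenin signalling shapes the early blood-brain barrier. The Cre driver, the line that tags the ribosomes and the number of embryos behind a library were not given in the sources used here. The labels call the libraries biological replicates, and p-values measure the spread between them.

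Values are RPKM, reads scaled to the length of the transcript and the depth of the library. The reads recovered from the table summed to between 21076922 and 37040176 in Axin1 libraries, with Axin1 replicate 3 the shallowest, and to between 53524184 and 62507510 in wild-type libraries. Axin1 itself stood at 37.8 ± 0.349 RPKM in Axin1 overexpression and 14.4 ± 0.798 RPKM in wild type (SD, n = 3 each), with no overlap. Fold changes are on the log2(RPKM + 1) scale, Axin1 overexpression over wild type, and a gene is called at a limma adjusted p under 0.05 over the 12493 genes whose mean reached 1 RPKM. By that rule 22.8% of tested genes were called, 14.4% as higher and 8.37% as lower with Axin1; the 1800 higher and 1046 lower genes became 1248 and 1392 with libraries scaled to their median of ratios, and 1117 and 1466 with a shared upper quartile. All 10 endothelial markers were tested, and they summed to between 3008 and 3226 RPKM in Axin1 libraries and between 3422 and 3590 RPKM in wild-type libraries. Of these 10, 1 was higher and 3 were lower with Axin1. Markers of other cells moved as well, and their part in the results below was not tested; in bulk RNA, fewer cells of a type and less RNA per cell cannot be told apart. Higher with Axin1 were 4 of 8 neural progenitor markers (sums of 773 to 829 RPKM with Axin1 and 576 to 698 RPKM in wild type), 3 of 8 neuronal markers (541 to 559 RPKM with Axin1 and 461 to 576 RPKM in wild type) and 4 of 5 tested erythroid markers (321 to 642 RPKM with Axin1 and 97.8 to 125 RPKM in wild type; the other was lower). Lower with Axin1 were 3 of 7 tested pericyte and smooth muscle markers (20.9 to 27.7 RPKM with Axin1 and 28.3 to 31.8 RPKM in wild type) and 2 of 7 meningeal fibroblast markers (117 to 144.7 RPKM with Axin1 and 144.5 to 196 RPKM in wild type). Of the microglial and oligodendrocyte lineage markers, 1 of 4 and 1 of 3 tested were higher, with sums of 12.1 to 22.3 and 7.96 to 9.22 RPKM with Axin1, against 11.7 to 13.6 and 7.31 to 7.85 RPKM in wild type. None of the markers was at 0 in all libraries. Every column name of an Axin1 library carries the tag RS216 and every wild-type one RS148; if the tag marks a run, run and genotype cannot be told apart.

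Cells make cholesterol from acetyl-CoA through mevalonate, isoprenoid units and squalene. When sterols in the endoplasmic reticulum are low, the escort protein SCAP carries the precursors of the transcription factors SREBP-1 and SREBP-2 (genes Srebf1 and Srebf2) to the Golgi, where proteases free their active part. Insig proteins hold SCAP back when sterols are high, and Insig1 is itself switched on by SREBP. SREBP-2 acts mainly on genes of cholesterol synthesis and uptake, SREBP-1c mainly on those of fatty acid synthesis. Brain tissue relies on cholesterol made on site, since the barrier keeps out the cholesterol of plasma lipoproteins.

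SREBP proteins bind sterol response elements, often beside a site for the factor NF-Y, and the promoters of the genes were read for the letters of both. The RefSeq promoter table (build GRCm38.p6, another build than the authors' mm9, matched by symbol) held 6 of the 8 genes; Sqle and Fdft1 had no entry. The 250 bases before each start were searched on both strands for TCACNCCA, the core letters of the classical element, and for the NF-Y box CCAAT. TCACNCCA occurred before the starts of Hmgcs1 and Srebf2, against 3.67% of the 32851 promoters of that length. Each of the 6 genes had CCAAT on 1 or the other strand before at least 1 of its starts. Srebf1, with 3 listed starts, had no match before the second. Counted per promoter and not per gene, 33.8% of all promoters held CCAAT. A match is a run of letters only, and a stretch with no match says nothing about the factor. The stretches of 100 bases below, 5′ to 3′ on the strand of the gene, are those with the sterol letters or, for Insig1 and the most downstream listed start of Srebf1, an NF-Y box; capitals mark TCACNCCA and CCAAT on either strand.
Hmgcs1 (chr13:119690164-119690263, + strand): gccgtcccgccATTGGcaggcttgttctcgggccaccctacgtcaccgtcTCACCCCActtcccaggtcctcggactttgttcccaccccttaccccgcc
Srebf2 (chr15:82147057-82147156, + strand): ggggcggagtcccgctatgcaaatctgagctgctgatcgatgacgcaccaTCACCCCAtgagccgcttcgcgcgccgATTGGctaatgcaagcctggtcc
Insig1 (chr5:28071162-28071261, + strand): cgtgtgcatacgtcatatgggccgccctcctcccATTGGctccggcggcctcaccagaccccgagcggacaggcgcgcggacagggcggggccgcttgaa
Srebf1 (chr11:60210472-60210571, - strand): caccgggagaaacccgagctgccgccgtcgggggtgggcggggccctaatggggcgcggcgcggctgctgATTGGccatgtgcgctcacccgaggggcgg

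Per length of transcript, Hmgcs1 was the most abundant of the 8 genes, with a mean of 90.8 RPKM over the 6 libraries. Sqle (34.1 RPKM) and Srebf2 (32.7 RPKM) came next, and their ranges over libraries overlapped, with Sqle above Srebf2 in 4 of 6 libraries. Insig1, Srebf1, Fdft1 and Lss lay close together at means of 8.72, 8.31, 7.87 and 6.46 RPKM, and the ranges of neighbours in this order overlapped. Idi1 was far below, at a mean of 0.776 RPKM from 48 to 136 reads per library, and was the 1 gene of the 8 that did not reach the filter of 1 RPKM. Of the 7 tested, 1 was lower with Axin1 (Srebf1), 1 was higher (Fdft1) and 5 were not called, so that the 2 called of 7 stand beside a background of 22.8%. The groups did not overlap for 3 of these 7, against 43.9% of all tested genes. Their median log2 fold change was 0.08, against 0.04 over all tested genes.

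**Figure D1:**
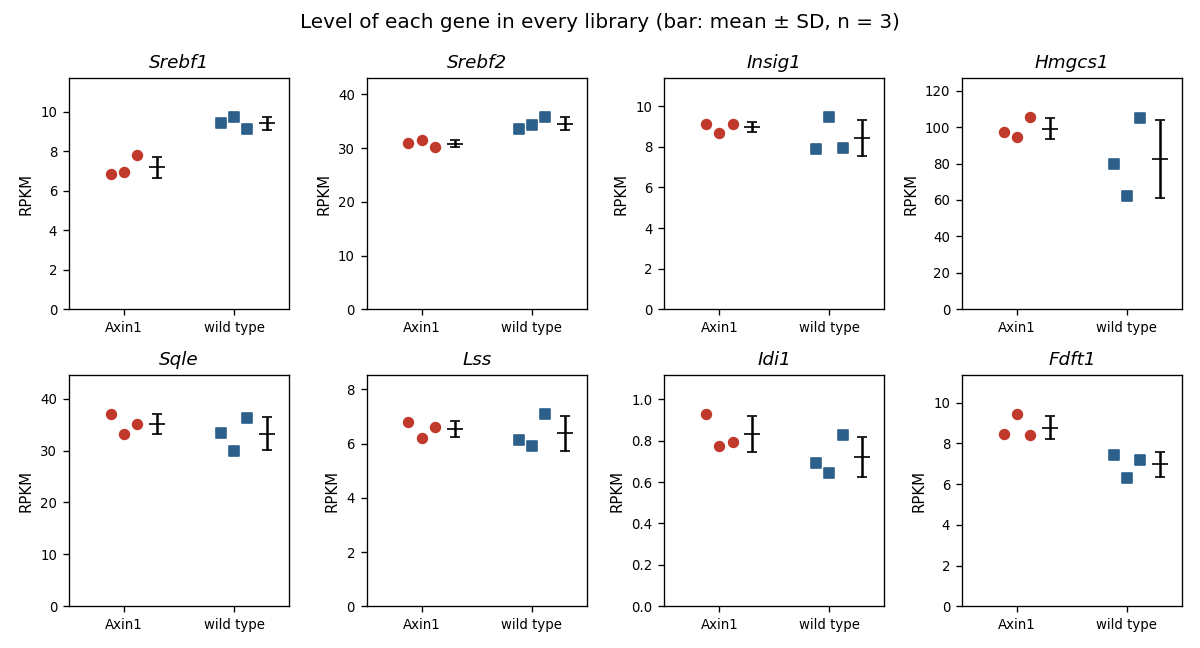
RPKM of each of the 8 genes in the 3 Axin1 overexpression libraries (red circles) and the 3 wild-type libraries (blue squares), with the mean and SD of each group as a bar beside the points; every axis starts at 0. Srebf1 and Srebf2 lie lower and Fdft1 higher in the Axin1 libraries with no overlap, while the groups overlap for the other genes.

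Srebf1, which encodes SREBP-1a and SREBP-1c, fell with Axin1 overexpression. It had 6.84, 6.95 and 7.81 RPKM in Axin1 replicates 1 to 3, against 9.41, 9.74 and 9.11 RPKM in wild-type replicates 1 to 3. All 3 Axin1 libraries lay below all 3 wild-type libraries. The means were 7.20 ± 0.529 RPKM with Axin1 and 9.42 ± 0.317 RPKM in wild type (SD, n = 3 each), a ratio of 0.764; the log2 fold change was -0.35 with an SE of 0.07 (limma adjusted p = 0.0104). The authors' deposited table gave a fold of 1.35 for wild type over Axin1, with an adjusted p of 0.000813; at 0.05 that table calls 8.88% of the 18917 genes it tests. The limma call was lost without Axin1 replicate 2 (log2 fold change -0.33, adjusted p = 0.0510) and once every library was corrected for the GC content and length of its transcripts, called the GC and length correction below (log2 fold change -0.18, adjusted p = 0.114). The table lists Srebf1 under 1 transcript accession, so its isoforms are not separated here.

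Srebf2, which encodes SREBP-2, was not called. It had 30.9, 31.4 and 30.2 RPKM with Axin1, against 33.6, 34.3 and 35.8 RPKM in wild type. The groups did not overlap here either, but the gap was small: the log2 fold change was -0.16, with a 95% interval of -0.29 to -0.03 (limma adjusted p = 0.0804). The call depended on the scaling, since Srebf2 passed after rescaling by the median of ratios (log2 fold change -0.21, adjusted p = 0.0355), while the GC and length correction turned the value to 0.03 (adjusted p = 0.747). Within a library, Srebf1 stood at 0.221, 0.221 and 0.258 of Srebf2 with Axin1, against 0.280, 0.284 and 0.254 in wild type. These ratios overlapped, through Axin1 replicate 3 and wild-type replicate 3.

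Insig1, the anchor that binds SCAP in the endoplasmic reticulum when sterols are high, was not called. It had 9.12, 8.69 and 9.14 RPKM with Axin1, against 7.92, 9.48 and 7.96 RPKM in wild type. Wild-type replicate 2 was the highest of all 6 libraries, and the other two wild-type libraries were the lowest. The log2 fold change was 0.08, with a 95% interval of -0.09 to 0.26 (limma adjusted p = 0.455). The paralogue Insig2 was at 10.5 ± 0.878 RPKM with Axin1 and 11.6 ± 1.15 RPKM in wild type (SD, n = 3 each), with a log2 fold change of -0.13 (adjusted p = 0.296). The table lists Insig2 under 4 transcripts, and its reads did not come out whole.

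Among 11 genes of SREBP control, all tested, 2 were lower (Srebf1 and Scap) and 0 higher by limma. At a background of 8.37% lower and 14.4% higher over all tested genes, their median log2 fold change was -0.11, against 0.04 for all. Scap, the escort itself, had 19.2 ± 0.242 RPKM with Axin1 and 22.6 ± 1.15 RPKM in wild type (SD, n = 3 each), a log2 fold change of -0.23 (adjusted p = 0.0316). The Scap call held under 10 of 17 other settings. It was lost when any library but wild-type replicate 3 was left out, under the replicate block and under the GC and length correction, where the log2 fold change was -0.05 (adjusted p = 0.511). Mbtps1, the site-1 protease that makes the first cut in SREBP, had a log2 fold change of -0.22 (adjusted p = 0.0620) and was not called. Mbtps2, the site-2 protease, was at 0.06 (adjusted p = 0.604). Rnf139, a sterol-sensing ubiquitin ligase, was at -0.11 (adjusted p = 0.282), and neither of these was called. Under the GC and length correction, 0 of these 11 genes were called; the cause was not tested.

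The 5 enzymes follow in the order of the pathway. Hmgcs1, the cytosolic synthase that makes HMG-CoA, had 97.2, 94.8 and 105.6 RPKM with Axin1, against 80.01, 62.1 and 105.2 RPKM in wild type. The Axin1 libraries lay close together, while the wild-type libraries were wide apart, with a coefficient of variation of 5.69% with Axin1 and 26.3% in wild type. Counting error alone was 1.17% at the 7318 reads of the shallowest library. The log2 fold change was 0.29, with a 95% interval of -0.07 to 0.66 (limma adjusted p = 0.209), so Hmgcs1 was not called. The value rested on single wild-type libraries: it was 0.49 (adjusted p = 0.0282) without wild-type replicate 3 and 0.11 (adjusted p = 0.523) without wild-type replicate 2.

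Idi1, the isomerase that interconverts the isoprenoid building blocks, had 0.929, 0.772 and 0.793 RPKM with Axin1, against 0.692, 0.642 and 0.826 RPKM in wild type. These are 97, 82 and 48 reads with Axin1 and 123, 98 and 136 reads in wild type, so counting error reached 14.4% in the shallowest library, as large as the spread within the groups (10.2% with Axin1 and 13.2% in wild type). The groups overlapped. The difference of the group means on the log2(RPKM + 1) scale was 0.09, with no test under the filter, and 0.23 (adjusted p = 0.368) with limma's voom on the recovered reads of genes with at least 30 reads. Of the 50-base words of the reference Idi1 transcript, 30.5% also occur in transcripts of other genes, mostly predicted genes such as Gm13502. How the authors counted reads with several matches was not given in the sources used here, so the low level of Idi1 is uncertain. The same limit holds for Hmgcs1, with 13.6% of its words shared with Gm48342.

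Fdft1, squalene synthase, which commits the pathway to sterols, was the 1 member called higher. It had 8.44, 9.45 and 8.44 RPKM with Axin1, against 7.45, 6.28 and 7.18 RPKM in wild type, with no overlap. The means were 8.77 ± 0.583 RPKM with Axin1 and 6.97 ± 0.610 RPKM in wild type (SD, n = 3 each), a ratio of 1.26; the log2 fold change was 0.30 with an SE of 0.08 (limma adjusted p = 0.0286). The call stood near the threshold: leaving out any library but wild-type replicate 1 gave an adjusted p between 0.0503 and 0.113. The authors' deposited table gave a fold of 0.820 for wild type over Axin1, with an adjusted p of 0.105. In the reference, 30.7% of the 50-base words of the Fdft1 transcript are shared with other transcripts, chiefly of Ctsb, which overlaps its 3′ end on the opposite strand, and the library kit does not mark strand. Ctsb, a lysosomal protease, was at 60.7 ± 5.83 RPKM with Axin1 and 60.8 ± 3.95 RPKM in wild type (SD, n = 3 each), with a log2 fold change of -0.01 (adjusted p = 0.963). The transcript length implied by the table was 2103 bases for Fdft1, while the share of words was taken over 3649 words of a longer reference transcript. That share need not hold for the length counted by the authors. The part of shared reads in the value of Fdft1 was not tested.

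Sqle, squalene epoxidase, which puts the first oxygen on squalene, had 37.1, 33.2 and 35.0 RPKM with Axin1, against 33.4, 29.9 and 36.3 RPKM in wild type. The highest Axin1 library lay above every wild-type library, but the ranges overlapped, and the log2 fold change was 0.08 with a 95% interval of -0.11 to 0.27 (limma adjusted p = 0.503). Lss, lanosterol synthase, which closes the sterol rings, had 6.79, 6.23 and 6.62 RPKM with Axin1, against 6.13, 5.90 and 7.10 RPKM in wild type. Wild-type libraries held both its highest and its lowest value. Its log2 fold change was 0.04, with a 95% interval of -0.14 to 0.21 (adjusted p = 0.759), and it changed sign with either rescaling. For Insig1, Sqle and Lss, these intervals leave out changes beyond about 0.27 in either direction on the log2(RPKM + 1) scale.

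**Figure D2:**
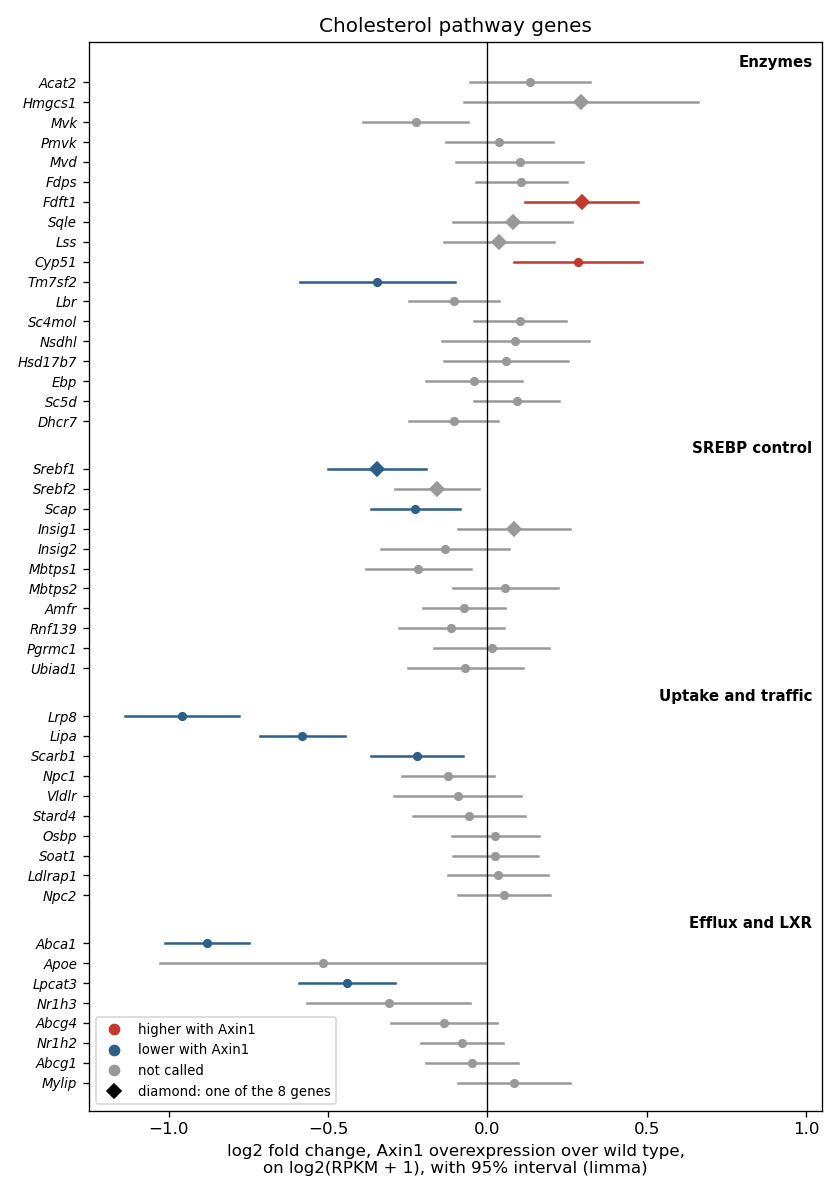
Log2 fold change of tested genes of 4 lists (points; 3 genes that were not called are left out) with its 95% limma interval (lines), Axin1 overexpression over wild type on log2(RPKM + 1), enzymes in pathway order. Most enzymes lie within 0.3 of 0, Srebf1 and Scap are called lower, and the largest changes are falls of Lrp8, Abca1 and Lipa in the lists of uptake and efflux.

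In the whole pathway, 20 of 21 enzymes were tested; 2 were higher (Fdft1 and Cyp51), 1 was lower (Tm7sf2) and 17 were not called, beside the background of 14.4% higher and 8.37% lower. The median log2 fold change was 0.08, against 0.04 over all tested genes. The direction of the calls depended on the scaling. With the median of ratios, 1 enzyme was higher and 2 were lower (median log2 fold change 0.04, against -0.003 for all). With a shared upper quartile, 0 were higher and 3 were lower (median 0.03, against -0.01 for all). Cyp51, the lanosterol demethylase, had 12.9 ± 0.361 RPKM with Axin1 and 10.5 ± 1.36 RPKM in wild type (SD, n = 3 each; log2 fold change 0.28, adjusted p = 0.0486). Tm7sf2, a sterol reductase, had 2.68 ± 0.215 RPKM with Axin1 and 3.71 ± 0.676 RPKM in wild type (SD, n = 3 each; log2 fold change -0.35, adjusted p = 0.0482). Neither call was firm: that of Cyp51 held under 6 of 17 other settings and that of Tm7sf2 under 5 of 16, and each was lost when any library but wild-type replicate 3 was left out (highest adjusted p = 0.121 and 0.129 over all settings). Mevalonate kinase (Mvk) had a log2 fold change of -0.23 (adjusted p = 0.0551) and was not called. Without Axin1 replicate 1, 2 or 3 or wild-type replicate 2, 0 of the enzymes were called. Fdps and Acat2 share 86.4% and 45.9% of their 50-base words with other transcripts, and their levels of 7.06 and 24.6 RPKM with Axin1 and 6.49 and 22.4 RPKM in wild type are uncertain for that reason.

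Within the wild-type group, many of the enzymes had their low and high values in the same libraries. Hmgcs1, Idi1, Fdft1, Sqle and Lss were each lowest in wild-type replicate 2, and all but Fdft1 were highest in wild-type replicate 3. Of all 21 enzymes, 14 were lowest in wild-type replicate 2 and 13 highest in wild-type replicate 3, beside 38.4% and 31.0% of all tested genes. Insig1 had its highest wild-type value in replicate 2, as did Srebf1, Insig2 and 36.4% of all tested genes. Its values in wild-type replicates 1 and 3 were nearly equal (7.92 and 7.96 RPKM). Low values in wild-type replicate 2 were not particular to the enzymes. Sox2 had 28.4 RPKM in wild-type replicate 2, against 35.7 and 36.7 in replicates 1 and 3. Tubb3 had 236 RPKM, against 324 and 308, but Hes5 was lowest in replicate 3 (6.81 RPKM). Chi-square per degree of freedom was 36.3 and 37.1 for pairs with wild-type replicate 2, against 20.9 between replicates 1 and 3. A link was not tested. Of the 5 enzymes, 4 were lowest among the Axin1 libraries in replicate 2. By contrast, Srebf2 was closest to even, with a coefficient of variation of 1.98% with Axin1 and 3.32% in wild type. The 5 genes outside the lists whose profile over the 6 libraries was most like the mean of these 5 enzymes were Mybbp1a, Son, Ift80, Cep170 and Iqgap2, with Pearson's r between 0.990 and 0.994 as the measure of likeness. None of these 5 was called by limma (adjusted p between 0.0987 and 0.269). Of 12419 genes compared, 376 (3.03%) had an r of at least 0.9. The 6 libraries differ in depth and genotype, and every gene is read from the same 6, so this is a description only.

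**Figure D3:**
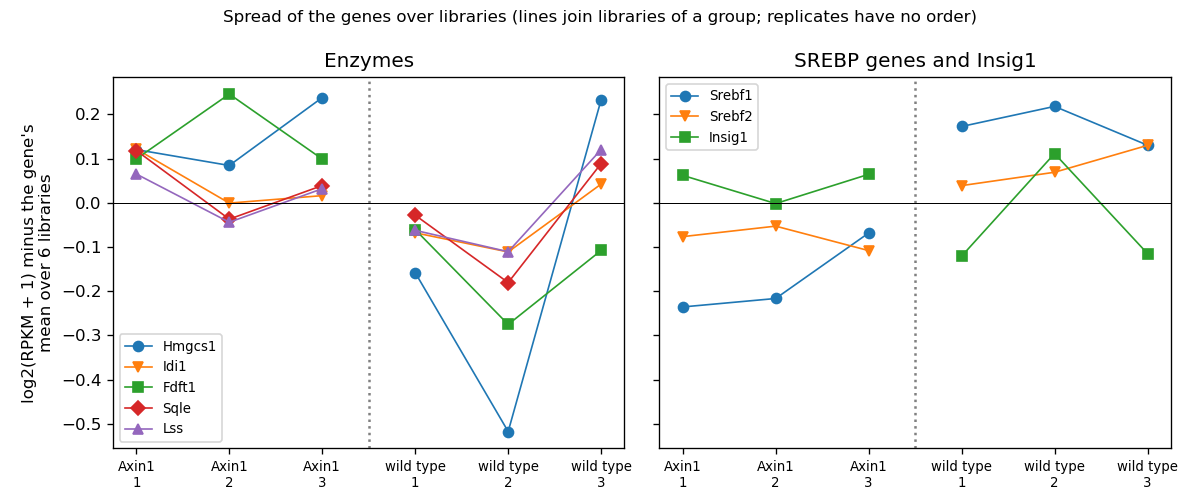
Deviation of log2(RPKM + 1) from each gene's mean over the 6 libraries, for the 5 enzymes (left) and for Srebf1, Srebf2 and Insig1 (right); Axin1 overexpression libraries stand left of the dotted line and wild-type ones right of it, and lines only join libraries of a group. Hmgcs1 falls to -0.52 in wild-type replicate 2, where all 5 enzymes are at their lowest wild-type value and Insig1 and Srebf1 at their highest.

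The called changes of largest size among the lists were in sterol uptake and efflux. Of 11 tested genes of uptake and traffic, 3 were lower and 0 higher by limma. Over all tested genes, 8.37% were lower and 14.4% higher. The median log2 fold change of the list was -0.09, against 0.04 for all, and 8.88e-05 without wild-type replicate 2. Under the GC and length correction, 1 of the 11 genes was higher and 2 were lower. Lrp8, a lipoprotein receptor that binds apolipoprotein E and reelin, fell to 53.3 ± 1.08 RPKM with Axin1, against 105 ± 10.5 RPKM in wild type (SD, n = 3 each; log2 fold change -0.96, adjusted p = 0.000232). Lipa, the lysosomal lipase that frees cholesterol from lipoprotein esters, fell to 25.6 ± 0.855 RPKM with Axin1, against 38.8 ± 0.853 RPKM in wild type (SD, n = 3 each; log2 fold change -0.58, adjusted p = 0.000572). The HDL receptor gene Scarb1 was lower by less (log2 fold change -0.22, adjusted p = 0.0386), a call lost when any library except wild-type replicate 2 was left out and under the GC and length correction, with adjusted p up to 0.151.

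Of 8 tested genes of sterol efflux and of the sterol sensor LXR, 2 were lower and 0 higher, beside the same background of 8.37% lower and 14.4% higher (median log2 fold change -0.22, against 0.04 for all). Abca1, which loads cholesterol onto apolipoproteins and is induced by LXR, fell to 23.2 ± 0.771 RPKM with Axin1, against 43.6 ± 0.678 RPKM in wild type (SD, n = 3 each; log2 fold change -0.88, adjusted p = 9.16e-05). Lpcat3, a phospholipid-remodelling enzyme and LXR target, had a log2 fold change of -0.44 (adjusted p = 0.00404). The calls of Lrp8, Lipa, Abca1 and Lpcat3 held under all 17 other settings. Nr1h3, which encodes LXR-alpha, was near the filter at 1.10 ± 0.268 RPKM with Axin1 and 1.60 ± 0.288 RPKM in wild type (SD, n = 3 each) and was not called (adjusted p = 0.0763). The LXR target Abcg1 was not called either (log2 fold change -0.05, adjusted p = 0.610).

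In fatty acid synthesis and desaturation, where SREBP-1c acts, 2 of 15 tested genes were lower and 0 higher (median log2 fold change -0.03, against 0.04 for all). With 8.37% of all tested genes called lower, this count is near the background. Gpam, which starts glycerolipid assembly, had 7.58 ± 0.372 RPKM with Axin1 and 10.004 ± 0.637 RPKM in wild type (SD, n = 3 each; log2 fold change -0.36, adjusted p = 0.00954), a call that held under all 17 other settings. Scd2, a desaturase, had a log2 fold change of -0.24 (adjusted p = 0.0226), which was no longer called when Axin1 replicate 2 or 3 or wild-type replicate 3 was left out or under the GC and length correction (highest adjusted p = 0.0936). Fasn, fatty acid synthase, was not called (log2 fold change -0.28, adjusted p = 0.120), nor was Acss2, which makes acetyl-CoA from acetate (0.27, adjusted p = 0.0608). On the isoprenoid branch, which leaves the pathway before squalene, 3 of 9 tested genes were higher and 0 lower, beside 14.4% of all tested genes called higher and 8.37% called lower (median log2 fold change 0.12, against 0.04 for all). These were Coq2 (0.35, adjusted p = 0.0168), Ggps1 (0.29, adjusted p = 0.0316) and Pdss1 (0.23, adjusted p = 0.0318), which act in making ubiquinone and geranylgeranyl diphosphate. The calls were lost together without Axin1 replicate 2 or 3, where 0 of the 9 genes were called; that of Coq2 held under 15 of 17 settings, that of Ggps1 under 9 and that of Pdss1 under 7.

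**Figure D4:**
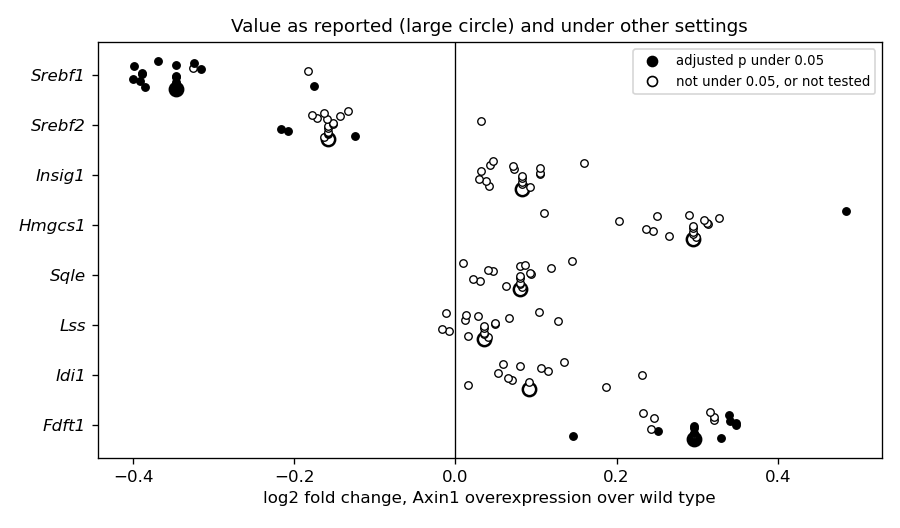
Log2 fold change of each of the 8 genes, Axin1 overexpression over wild type, as reported (large circles) and under each other setting (small circles), filled where the adjusted p is under 0.05. Srebf1 lies below 0 and Fdft1 above 0 under every setting run, Srebf2 is filled under 4 settings and above 0 under 1, and Hmgcs1 is filled only without wild-type replicate 3.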

How the data were processed

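The members and gene lists were chosen with earlier results of these data known. Bowtie, DESeq and mouse build mm9 are named, without versions, per the submitters' processing notes; the counter and the filters were not given in the sources used here. The deposited table gives RPKM for each gene in each library, a unit settled from the values. Per the file headers, the authors' deposited table also holds the mean signal of each group (normalized counts), a fold (wild type over Axin1, from the values) and a p-value with its adjusted p-value. From RPKM and those group means the reads behind each value were worked back, and 99.99% of values of genes with 1 transcript came out whole within 0.05 reads (84.9% of all values). Replicates differed by more than sampling noise (chi-square per degree of freedom 6.84 to 37.1). The limit that a count of 0 leaves (3 reads, counting error only) was 0.0487 to 0.143 RPKM for a transcript of 1 kb.

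The two-sided test was that of limma 3.58.1 (R 4.3.3), on log2(RPKM + 1), with no factor but group, for genes whose mean reached 1 RPKM, with Benjamini-Hochberg adjustment over all of them, and was tested on simulated data. Genes named outside the members were those called in a list, those with the 3 lowest p-values of a list, Insig2, and the 5 most similar profiles; Mbtps2, Fdps, Acat2, Ctsb, Abcg1 and Fasn were added with their values known; 3 genes of the lists enter the counts but are not reported here. Alternatives were other pseudocounts, filters, scalings and variances, the replicate block, voom on recovered reads (also with at least 30 reads in all, added after seeing the data), a loess correction (span 0.5) for GC content and length, known for 99.7% of tested genes, and leaving out each library. Python 3.11.15, pandas 2.3.3, numpy 2.4.6 and matplotlib 3.10.9 were used.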

Additional observations from a re-analysis of the deposited data

How the results depend on the processing

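Direction and side of the threshold did not change for Insig1 and Sqle under any setting run. Srebf1 lost its call under the GC and length correction (-0.18); leaving out a library gave -0.40 to -0.32. Srebf2 was called with a pseudocount of 10 RPKM (log2 fold change -0.13), no filter (-0.16), the median of ratios (-0.21) and a shared upper quartile (-0.22), and it turned to 0.0318 under the GC and length correction. Lss turned to -0.00858 with the median of ratios, -0.0162 with a shared upper quartile and -0.0114 without wild-type replicate 2; leaving out a library gave -0.01 to 0.10. Fdft1 lost its call with no filter (0.30) and with a shared upper quartile (0.24), and leaving out a library gave 0.23 to 0.34. Hmgcs1 gave 0.11 to 0.49 when a library was left out. Idi1 was at 0.19 with a pseudocount of 0.1 RPKM, 0.01 (0.0150) with 10 and 0.23 with voom on genes of at least 30 reads. These values are on unlike scales. A larger pseudocount shrinks the log2 difference of a gene at a mean of 0.776 RPKM, and voom does not use log2(RPKM + 1). Leaving out a library gave 0.05 to 0.14 for Idi1. The cause of the other shifts was not tested.

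Leaving out a library gave 1054 to 2318 called genes in all (1054 without Axin1 replicate 2 and 1402 without Axin1 replicate 3, against 2308 without Axin1 replicate 1; the cause was not tested), 0 to 2 called members, 0 to 3 enzymes, 0 to 3 genes of SREBP control, 1 to 3 of fatty acid synthesis and 0 to 3 of the isoprenoid branch. Under the GC and length correction, the called genes numbered 1 member, 0 of SREBP control, 1 of fatty acid synthesis and 1 of the isoprenoid branch. Of the enzymes, 1 was called with a pseudocount of 0.1 RPKM and 0 with no filter (variances and adjustment then both taken over more genes). Of SREBP control, 4 genes were called with a pseudocount of 10 RPKM, the median of ratios or a shared upper quartile. With a shared upper quartile, 1 gene of the isoprenoid branch was called.

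The replicate numbers are shared between the groups, but same-numbered libraries did not deviate together beyond 0.1 in every pair (correlations 0.08, 0.13 and 0.06 for numbers 1 to 3), although each library correlated best with its own number. Under the replicate block 2675 genes were called in all and 1 of SREBP control, and no call of a member changed.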
